A study of Mus musculus with 12 samples.

Results

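Cytosolic ribosomal protein genes encode the protein subunits of the ribosome that translates the cell's nuclear messages. They were followed in mouse hearts that carried a mutant form of human integrin-linked kinase (ILK), an adaptor protein of cell adhesion sites in the cardiomyocyte, and in wild type littermates. Members were the genes that the array annotation names alone on a probe set and whose symbol is Rpl or Rps with a number and at most 1 letter a, x or l, or Rpsa, Rplp0, Rplp1 or Rplp2, with pseudogenes left out. The rule gave 45 genes, on 99 probe sets, out of 18193 genes that a probe set names alone. Each gene was read from its brightest probe set, and 42 of the 45 were bright enough to be tested. Of the 45, 24 belong to the large subunit and its stalk and 21 to the small subunit. The symbol rule used no measured value, though the brightest probe set was chosen by its mean, and 1 gene that fits the symbols, the pseudogene Rps4l, was left out after its values had been seen.

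The 12 hearts came from C57BL/6 mice aged 8 to 9 weeks. The comparison took in 3 ILKR211A Tg hearts, 3 ILKS343D Tg hearts and 6 WT hearts, all hybridised singly on Affymetrix mouse expression arrays. Both transgenes are mutated human ILK genes over-expressed specifically in the heart, with the promoter that drives them not named in the paper or the labels. The labels number the WT littermates from 1 to 3 in 2 sets, here called the first set (heart numbers 1 to 6, shared with ILKS343D Tg) and the second set (heart numbers 7 to 12, shared with ILKR211A Tg). They do not state which line each set belongs to. The ILKS343D Tg heart whose label bears no number was taken as replicate 1, the others being numbered 2 and 3. Replicate 1 of the first WT set is labelled male and all other hearts female, so sex and WT genotype partly coincide. The labels give no infarction for any heart, while the study's methods speak of hearts with and without infarction and its supplementary legends describe arrays of ILKR211A hearts both at baseline and after infarction. Groups here follow the labels.

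The ribosomal proteins assemble with ribosomal RNA into a small subunit, which reads the message, and a large subunit, which joins the amino acids. Because every subunit needs 1 copy of nearly every protein, the genes are strongly transcribed in most cells and are known to be regulated as a group. Their transcripts open with a run of pyrimidines, the 5′ terminal oligopyrimidine (TOP) motif, through which mTOR signalling and the RNA-binding protein Larp1 set their translation. That control acts mainly on the use of the message rather than on its amount, and only the amount was measured here.

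The pyrimidine run could be seen in the reference sequence of many members, and 5 starts are shown. Of these 4 were chosen by the length of the run alone. Rpl27a, which also had the largest difference between the mutant lines, is among them. The last is the muscle paralog Rpl3l, in which the run was not found. RefSeq promoters (GRCm38.p6, 250 bases before to 50 after the start) were at hand for 40 of the 45 members, matched by gene identifier. A C followed by at least 5 C or T, opening within 5 bases of the annotated start on the coding strand, stood in 16 of the 40 (40.0%), against 11.7% of 17491 protein-coding genes with an entry. The 4 tested members with the longest run by this count and Rpl3l are printed 5′ to 3′ on the coding strand. They go from 20 bases before the start to 30 from it, with the run so counted in capitals.
Rpl27a, chr7:109519175-109519224, plus strand: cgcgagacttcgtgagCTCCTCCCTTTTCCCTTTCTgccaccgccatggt
Rpl35, chr2:39005102-39005151, minus strand: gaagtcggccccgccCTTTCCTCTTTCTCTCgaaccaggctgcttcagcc
Rpl13a, chr7:45128716-45128765, minus strand: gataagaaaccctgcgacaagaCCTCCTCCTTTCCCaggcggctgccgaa
Rps10, chr17:27635215-27635264, minus strand: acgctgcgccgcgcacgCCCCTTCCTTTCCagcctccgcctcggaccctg
Rpl3l, chr17:24727806-24727855, plus strand: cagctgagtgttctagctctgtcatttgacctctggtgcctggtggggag
The run so counted was 20 bases in Rpl27a, 16 in Rpl35, 14 in Rpl13a and 13 in Rps10. In Rpl35 the pyrimidines go on before the marked stretch, which the limit of 5 bases cuts. In the whole window of 300 bases, on either strand, the ETS family motif CCGGAAG stood in 20 of 40 members and in 12.9% of all genes. The YY1 motif AAGATGGC stood in 3 of 40 (7.5%) against 3.57%, the SP1 motif GGGCGG in 22 (55.0%) against 49.2%, and the TATA box TATAAA in 5 (12.5%) against 14.8%. These are matches of letters, with no claim about a factor.

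Ilk itself marked the genotypes. Its probe set read 551 to 657 in the 6 WT hearts. In the ILKS343D Tg hearts it read 3258, 3272 and 4016, and in the ILKR211A Tg hearts 8223, 9553 and 8622. The fitted rises over WT were 5.83-fold and 14.6-fold (limma adjusted p = 1.6e-10 and 3.8e-13), and the 2 lines also differed from each other by 2.51-fold (limma adjusted p = 1.1e-05), so the lines differed in Ilk signal as well as in mutation. Ilk was the 1 probe set called between ILKS343D Tg and WT.

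All 12 cardiomyocyte markers were bright enough to be tested in these hearts. Between any 2 arrays the log2 signals of all 45037 probe sets, tested or not, correlated at 0.933 to 0.945. Most ribosomal protein genes gave some of the brightest signals of the array, with 36 of the 42 tested members at or above the 95th percentile of all probe sets and 24 at or above the 99th. Brightness depends on the probes and does not rank genes by the amount of transcript. In bulk heart RNA, fewer cells of a type and less RNA per cell cannot be told apart. The members had a lower limma SD within groups than the genes at large, with a median of 0.094 on the log2 scale against 0.18 over all 22519 tested probe sets. This SD is limma's moderated value, drawn towards a trend over signal, and not the plain spread between hearts. Other bright lists had similar medians, 0.091 for elongation factors and other genes with TOP transcripts and 0.10 for the cardiomyocyte markers, and the 6 members below the 95th percentile had 0.18.

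No ribosomal protein gene was called in any genotype comparison at a limma adjusted p under 0.05. For ILKR211A Tg against WT, 0 of 42 members were called, against 0.204% of all tested probe sets. At an unadjusted p under 0.05 limma gave 3 members (7.14%, all lower), against 7.51% of all probe sets (3.51% higher and 4.00% lower). For ILKS343D Tg against WT, 0 of 42 were called, against 0.00444%, and 3 passed unadjusted (2 higher, 1 lower), against 3.98% (2.13% and 1.86%). For ILKR211A Tg against ILKS343D Tg, 0 of 42 were called, against 0.160%, and 4 passed unadjusted (9.52%; 3 higher, 1 lower), against 8.45% (4.26% and 4.18%). The first WT set against the second gave 0 of 42 members, against 0.00888%, and 0 unadjusted, against 7.99%. The members' shares in the ILKR211A Tg comparisons were near those of all probe sets. With hearts of equal number within a range of heart numbers taken as pairs (replicate block within each range, added after the data were seen), limma again called 0 members, and 4 members passed unadjusted for ILKR211A Tg against WT (9.52%, against 9.46% of all probe sets) and 3 for ILKS343D Tg against WT (7.14%, against 7.38%). Between the lines 8 passed (19.0%, against 9.64%), 7 of them higher in ILKR211A Tg. No pair holds both lines, so this compares each line's difference from the WT set of its range and takes in any difference between the WT sets. The first WT set holds the male heart, and the fit leaves 4 residual degrees of freedom. In that fit 1 probe set in all was called between the lines in place of 36.

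The differences were also small and, for most genes, closely bounded. Between ILKR211A Tg and WT the 42 log2 differences ran from -0.21 to 0.24 with a median of 0.019, while the median over all tested probe sets was 0.00081. Their 95% intervals lay within a 1.25-fold change in either direction for 38 members and within 1.5-fold for 41, Rps27 being the exception. ILKS343D Tg hearts differed from WT by -0.25 to 0.48, with a median of -0.019 against 0.0026 for all probe sets, and 35 and 41 intervals fell inside the same bounds, again with Rps27 outside the wider one. Between the 2 mutant lines the range was -0.49 to 0.25 and the median 0.041, against -0.0047, with 32 and 40 intervals inside, Rpl27a and Rps27 lying outside. For comparison, the 2 WT sets, which share a genotype, differed by -0.26 to 0.16 with a median of 0.021. In this fit the medians of both lines against WT were no larger in size than the one between the WT sets. In the paired fit they were 0.027 for ILKR211A Tg and -0.027 for ILKS343D Tg, larger in size than 0.021. The comparisons share arrays, the WT hearts or 1 of the lines, so they are not independent of each other.

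**Figure D1:**
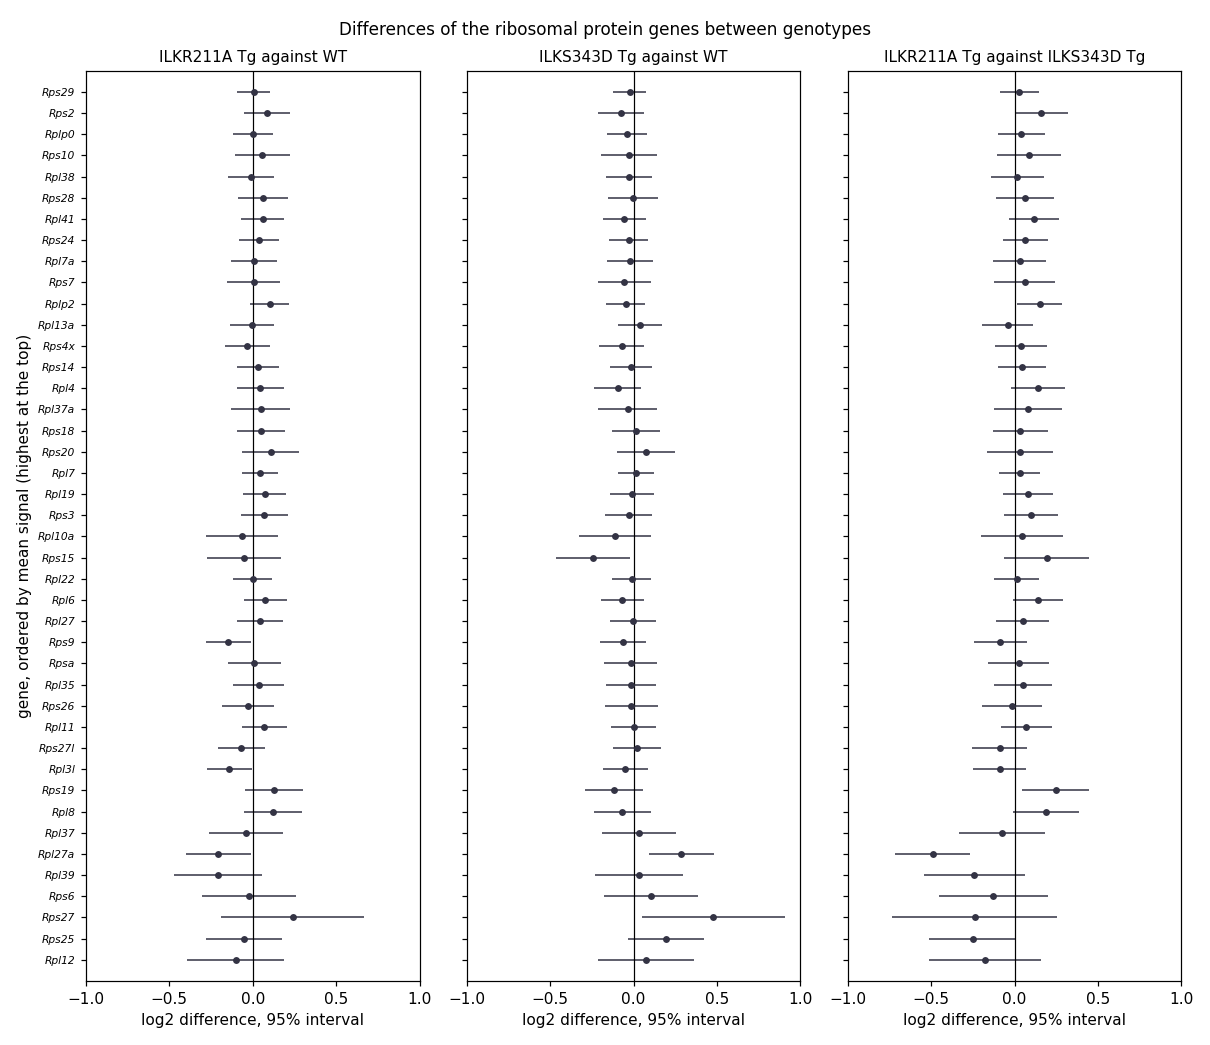
Log2 differences of the 42 tested ribosomal protein genes (points) with 95% limma intervals (bars) for 3 genotype comparisons, genes ordered by mean signal. Most points lie close to 0, and the widest intervals belong to the dim probe sets at the bottom, Rps27 among them.

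Both subunits gave much the same picture. The 22 tested genes of the large subunit and stalk had a median log2 difference of 0.022 between ILKR211A Tg and WT, of -0.018 between ILKS343D Tg and WT and of 0.043 between the lines. The 20 of the small subunit had medians of 0.019, -0.020 and 0.038. No test was made of the difference between subunits.

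Hearts of the same genotype differed in the level of the members. On each array the members tended to be high or low together. As log2 deviation from the WT mean, the median member of the first WT set stood at 0.057, -0.038 and -0.013 on replicates 1 to 3, and that of the second set at -0.059, 0.10 and -0.048. The ILKS343D Tg hearts stood at 0.030, -0.036 and -0.083, and the ILKR211A Tg hearts at -0.021, 0.12 and -0.021. The ranges of the 3 genotypes overlapped, and each WT set and each line had 1 heart above 0 with the other 2 below. In that heart 34, 35, 29 and 31 of the 42 members lay above their WT mean (first set, second set, ILKS343D Tg and ILKR211A Tg), and in the other 8 hearts 4 to 15 did. The pooled SD of these array medians within groups was 0.068, larger than the median difference of any genotype comparison. That SD is of single hearts and ignores the pairs of equal number. It is therefore not the spread of a difference between groups or within pairs, and the differences within pairs are given below. The members' share of the summed signal was 1.53% to 1.66% in WT, 1.51% to 1.62% in ILKS343D Tg and 1.56% to 1.68% in ILKR211A Tg hearts.

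**Figure D2:**
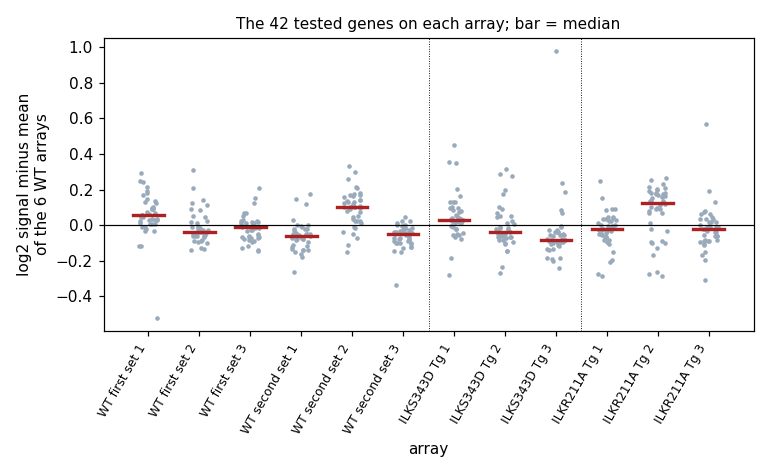
Log2 signal of the 42 tested genes minus the mean of the 6 WT arrays (points) on each of the 12 arrays, with the median (red bar) and the genotypes parted by dotted lines. The medians run from -0.083 to 0.12, and 1 heart in each WT set and each line stands above 0.

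Measures of the arrays themselves varied beside these medians. The median deviation of all tested probe sets from their WT mean was no larger than 0.016 in size on any array. Median signal over all probe sets was 43.1, 46.0 and 44.5 in the first WT set and 47.0, 45.9 and 47.1 in the second. It was 45.1, 49.1 and 46.0 in ILKS343D Tg and 46.5, 41.5 and 45.8 in ILKR211A Tg hearts. In each WT set and each line the array with the highest members had the lowest median signal. The 3′ to 5′ signal ratio of the beta-actin control was 1.22, 1.18 and 1.09 in the first WT set and 1.13, 1.24 and 1.11 in the second, with 1.17, 1.13 and 1.13 in ILKS343D Tg and 1.16, 1.17 and 1.18 in ILKR211A Tg hearts. In both WT sets and in ILKS343D Tg hearts the array with the highest ratio was also the one with the highest members, and in ILKR211A Tg hearts it was not. The summed signal of the 12 cardiomyocyte markers was 113535 to 136075 in WT, 109191 to 120004 in ILKS343D Tg and 117923 to 132034 in ILKR211A Tg hearts. The part of these measures in the members' levels was not tested.

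Leaving out single hearts turned the small medians over. Without replicate 2 of ILKR211A Tg, the heart with the highest members, the median log2 difference from WT went from 0.019 to -0.016 and that from ILKS343D Tg from 0.041 to -0.013. Without replicate 2 of the second WT set the median of ILKS343D Tg against WT went from -0.019 to 0.000982, and without replicate 3 of ILKS343D Tg it went to 0.0045. Leaving out 1 heart also breaks a pair of equal number, and within those pairs the sign of the median did not vary, though members went both ways in every pair. The heart with the highest members was replicate 2 both in ILKR211A Tg and in the second WT set. In ILKS343D Tg and in the first WT set it was replicate 1, a number not on the label of that ILKS343D Tg heart. The median member stood 0.058, 0.019 and 0.020 higher on the log2 scale in ILKR211A Tg than in its equal-numbered heart of the second WT set, and in ILKS343D Tg it differed by -0.023, -0.011 and -0.053 from that of the first. Of the 42 members, 30, 26 and 26 were higher in the ILKR211A Tg heart of pairs 1 to 3. In the ILKS343D Tg pairs 17, 20 and 9 were higher in the ILKS343D Tg heart. These medians and counts are a description of 3 pairs a line and were not tested.

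**Figure D3:**
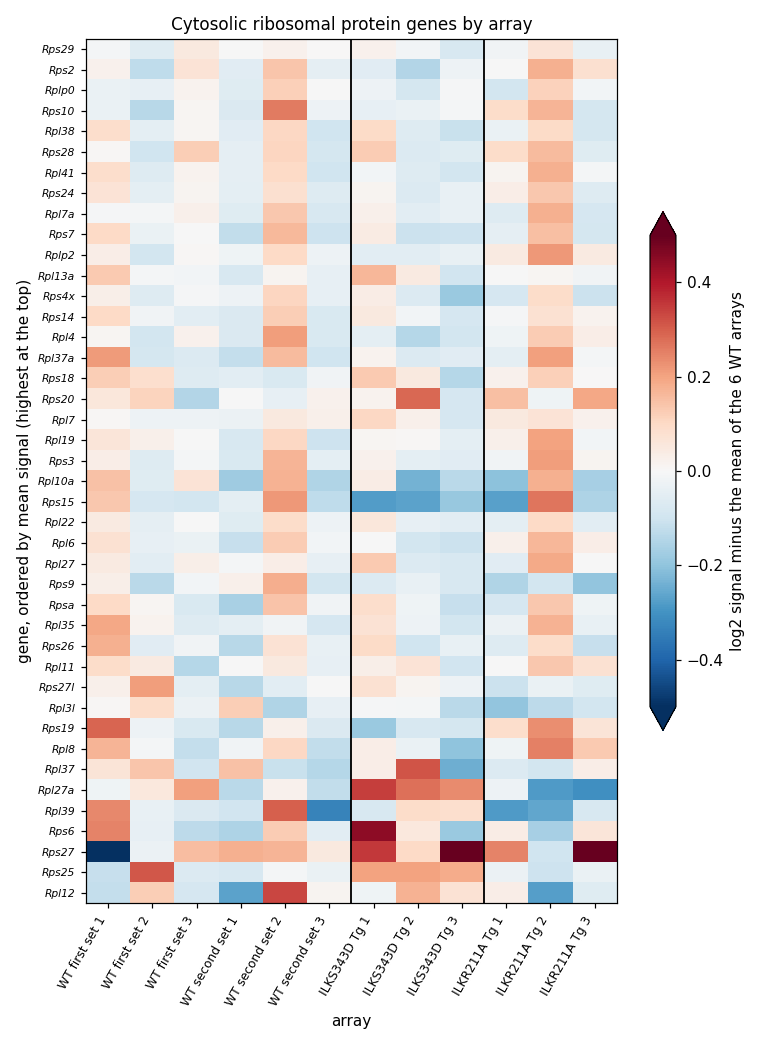
Log2 signal minus the mean of the 6 WT arrays, as colour, for the 42 tested genes (rows, by mean signal) on the 12 arrays (columns), with black lines between WT, ILKS343D Tg and ILKR211A Tg. In every genotype some columns lean to red and others to blue, several of them mixed, while the bottom 6 rows follow other patterns.

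The 6 dim members parted from the rest. Rpl27a, Rpl39, Rps6, Rps27, Rps25 and Rpl12 were the 6 tested genes under the 95th percentile of signal, a grouping made after the values were seen. All 6 were higher in ILKS343D Tg than in WT (medians of 0.15 on the log2 scale against -0.028 for the 36 bright genes) and all 6 were lower in ILKR211A Tg than in ILKS343D Tg (median -0.24), where 30 of the 36 bright genes were higher (median 0.047). Each of the 6 is also listed by other probe sets that carry several gene names, as are 15 of the 45 members in all. The probe sets that name a ribosomal protein gene with others numbered 110, of which 96 were tested and 0 called by limma in any comparison (0 to 3 unadjusted). Their medians were 0.037, -0.0089 and 0.046 in the 3 genotype comparisons. The split in sign between dim and bright probe sets was not tested.

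Rpl27a, a protein of the large subunit, had the smallest p of any member between the lines. It read 370.5, 352.7 and 342.8 in ILKS343D Tg hearts, 286, 239 and 235 in ILKR211A Tg hearts and 265 to 336 in WT (median 291). ILKS343D Tg lay above all WT hearts and all ILKR211A Tg hearts, while ILKR211A Tg and WT overlapped. The log2 difference between the lines was -0.49 (95% interval -0.72 to -0.27, limma adjusted p = 0.111), a ratio of 0.711. Against WT, ILKS343D Tg was higher by 0.29 (0.09 to 0.48, limma adjusted p = 0.995), with an exact two-sided permutation p of 0.0119, the smallest that 84 splits allow. ILKR211A Tg differed from WT by -0.21 (-0.40 to -0.01, limma adjusted p = 0.640). The first WT set stood 0.16 above the second on the log2 scale (-0.05 to 0.37). With the range of heart numbers as a block, which compares the lines through their WT sets, the difference between the lines was -0.33 (limma adjusted p = 0.672). The mean over both probe sets of the gene gave -1.11 (limma adjusted p = 0.514), but it takes in a probe set below the filter, with signals of 1.73 to 25.5, and is no measure of a larger difference.

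Rps27 had the largest difference of any member from WT and the widest interval. Its product is a zinc-finger protein of the small subunit. The signal was 153, 129 and 237 in ILKS343D Tg hearts, 143, 112 and 178 in ILKR211A Tg hearts and 83.8 to 136 in WT (median 129). The groups overlapped, and replicate 3 of ILKS343D Tg stood above all other hearts. The log2 difference was 0.48 for ILKS343D Tg against WT (0.05 to 0.91, limma adjusted p = 0.995) and 0.24 for ILKR211A Tg (-0.19 to 0.67, limma adjusted p = 0.870). Its paralog Rps27l, known as a p53 target, had differences of 0.02 and -0.07, with 2174, 2081 and 2024 in ILKS343D Tg and 1913, 2012 and 1975 in ILKR211A Tg hearts against 1874 to 2384 in WT.

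Rps15, a small subunit protein near the decoding centre, was the bright member farthest from WT. It read 3610, 3639 and 3848 in ILKS343D Tg hearts, all below the WT range of 4010 to 5093 (median 4189), and 3629, 5276 and 3941 in ILKR211A Tg hearts, on both sides of it. The log2 difference of ILKS343D Tg from WT was -0.25 (-0.47 to -0.02, limma adjusted p = 0.995, exact permutation p = 0.0476). A second tested probe set of Rps15 gave -0.021 for the same comparison.

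Non-overlap between groups was counted over all members. Between ILKR211A Tg and WT 0 members were apart, against 4.07% of all probe sets. Between ILKS343D Tg and WT 2 were (4.76%: Rpl27a above, Rps15 below), against 2.03%. Between the lines 11 of 42 were apart (26.2%), against 15.0% of all probe sets, with only 3 hearts on each side. Those higher in ILKR211A Tg were Rpl4, Rpl6, Rpl41, Rplp2, Rps2 and Rps19, and those lower were Rpl27a, Rpl39, Rps9, Rps25 and Rps27l. The exact permutation test of 3 hearts against 3 cannot give a p below 0.1.

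In ILKR211A Tg hearts the other 2 genes that passed the unadjusted threshold against WT were both lower. Rpl3l, the striated muscle paralog of Rpl3, read 1842, 1928 and 1977 in ILKR211A Tg hearts, 2102, 2093 and 1923 in ILKS343D Tg hearts and 1903 to 2295 in WT (median 2093). The groups overlapped, with the ILKR211A Tg hearts towards the low end of WT. The log2 difference from WT was -0.14 (-0.28 to -0.003, limma adjusted p = 0.650) for ILKR211A Tg and -0.05 (-0.19 to 0.09) for ILKS343D Tg. Rps9, a small subunit protein placed early in assembly, read 3153, 3277 and 3047 in ILKR211A Tg hearts, 3336, 3406 and 3302 in ILKS343D Tg hearts and 3181 to 3966 in WT (median 3515). Its difference from WT in ILKR211A Tg was -0.15 (-0.28 to -0.01, limma adjusted p = 0.639), and its second brightest probe set gave 0.015. Rpl3, the partner of Rpl3l, and Rpl10 have no probe set that names them alone and so have no value here.

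Between the lines, 3 bright genes were higher in ILKR211A Tg at an unadjusted p under 0.05. Rps19, mutated in Diamond-Blackfan anaemia, read 2050, 2268 and 2016 in ILKR211A Tg, 1697, 1824 and 1816 in ILKS343D Tg and 1752 to 2362 in WT hearts (median 1864). The lines did not overlap, WT overlapped both, and replicate 1 of ILKS343D Tg lay below every WT heart. The log2 difference between the lines was 0.25 (0.04 to 0.45, limma adjusted p = 0.4995). In the paired fit, which compares the lines through the WT sets, it was 0.37 (limma adjusted p = 0.406). Rplp2, an acidic stalk protein that recruits the elongation factors, read 5548, 6240 and 5545 against 5173, 5186 and 5238, with WT at 5035 to 5750, for a difference of 0.15 (0.01 to 0.29, limma adjusted p = 0.558). Rps2, at the message's entry to the small subunit, read 7209, 8172 and 7622 against 6944, 6527 and 7085, with WT at 6608 to 7956, for a difference of 0.16 (0.005 to 0.32, limma adjusted p = 0.585). In each of these genes the highest of the ILKR211A Tg hearts was replicate 2.

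**Figure D4:**
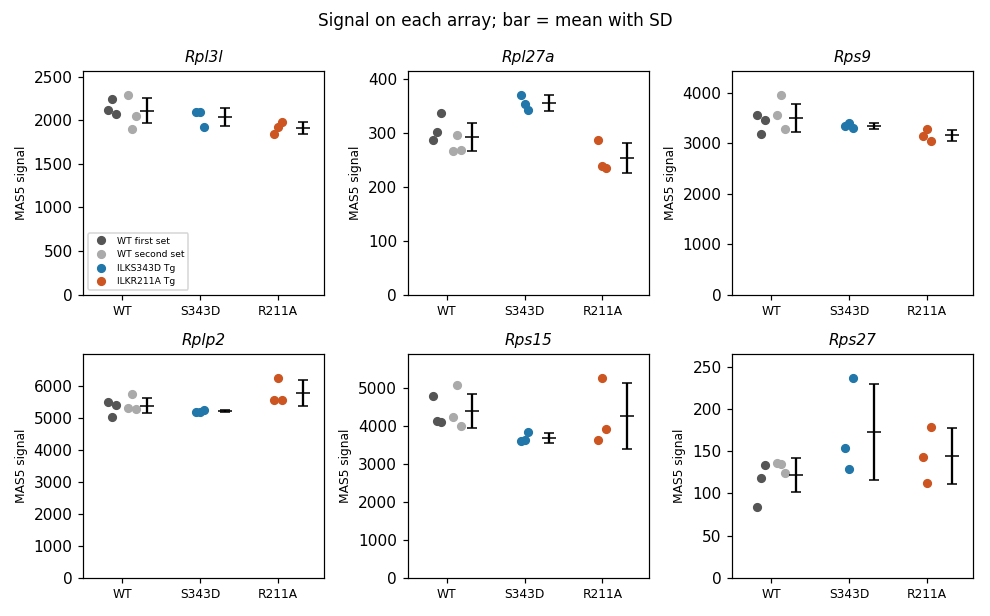
MAS5 signal of 6 ribosomal protein genes on each array (points, the WT sets in 2 greys), with the mean and SD of each genotype (black bars; 6 WT, 3 ILKS343D Tg and 3 ILKR211A Tg hearts). For Rpl27a and Rps15 the ILKS343D Tg hearts stand apart from WT, above and below it respectively, and for the other 4 genes both lines overlap WT.

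Genes at the ends of the range but short of any threshold moved by similar amounts. Rpl8, near the peptidyl transferase centre, read 1841, 2225 and 2044 in ILKR211A Tg and 1911, 1823 and 1625 in ILKS343D Tg hearts, with WT at 1713 to 2100, and differed between the lines by 0.19 (-0.01 to 0.39). Rps20, of the small subunit head, differed from WT by 0.11 in ILKR211A Tg (-0.06 to 0.28) and 0.07 in ILKS343D Tg (-0.10 to 0.25). Rpl4 and Rpl10a, of the large subunit, differed from WT by -0.10 (-0.24 to 0.05) and -0.11 (-0.32 to 0.10) in ILKS343D Tg hearts. Rpl39, which lines the exit tunnel, differed from WT by -0.21 in ILKR211A Tg (-0.47 to 0.05) with signals of 203, 206 and 233 against 196 to 303. Rps25 read 131, 130 and 129 in ILKS343D Tg and 111, 106 and 111 in ILKR211A Tg hearts, for a difference of -0.25 between the lines (-0.51 to 0.01), and WT ran from 105 to 141. Rpl12, at the base of the stalk, differed between the lines by -0.18 (-0.51 to 0.16).

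The brightest member and the proteins with functions beyond the subunit showed little movement. Rps29 read 10401 to 11234 in WT, 11022, 10741 and 10273 in ILKS343D Tg and 10715, 11393 and 10578 in ILKR211A Tg hearts, differences of -0.02 (-0.12 to 0.08) and 0.005 (-0.10 to 0.11). Rplp0, the scaffold of the stalk and a common reference gene, read 6947 to 7855 in WT, 7121, 6821 and 7216 in ILKS343D Tg and 6790, 7844 and 7177 in ILKR211A Tg hearts, with differences of -0.04 (-0.16 to 0.08) and 0.003 (-0.12 to 0.12). Rpsa, also described as the laminin receptor precursor, differed by -0.02 (-0.18 to 0.14) and 0.01 (-0.15 to 0.17). Rps6, the small subunit protein phosphorylated by S6 kinase, read 225, 171 and 145 in ILKS343D Tg and 169, 147 and 172 in ILKR211A Tg hearts with WT at 148 to 196, and its intervals, 0.10 (-0.18 to 0.39) and -0.02 (-0.31 to 0.26), were wider. The 1.25-fold bound held all of these intervals except that of Rps6 in ILKS343D Tg hearts.

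Probe sets of the same gene did not always give the same value. The brightest probe set of Rpl37a differed from WT by -0.035 in ILKS343D Tg hearts and another by -0.85. For Rpl35 the 6 tested probe sets ran from -0.55 to 0.035 in ILKR211A Tg against WT, and the probe set at the low end was dim, at the 51.6th percentile of signal. Between the lines the ranges were -0.18 to 0.18 for Rps10, -0.048 to 0.28 for Rps24 and -0.051 to 0.20 for Rpl22. Over all 81 tested probe sets of the members, limma called 0 in every comparison. At an unadjusted p under 0.05 it gave 4 for ILKR211A Tg against WT (4.94%, against 7.51% of all probe sets) and 4 for ILKS343D Tg against WT (4.94%, against 3.98%). Between the lines it gave 7 (8.64%, against 8.45%), and between the WT sets 1 (1.23%, against 7.99%).

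Of the 45 members, 3 fell below the filter and were not tested. Rps16 read 0.446 to 1.08 over the 12 hearts, far under the median probe set, although its protein is part of every small subunit. Rpl39l, a paralog known from testis, read 8.88 to 42.4 in WT, 24.7, 17.2 and 9.59 in ILKS343D Tg and 9.54, 1.97 and 6.98 in ILKR211A Tg hearts. Rpl14 read 19.1 to 35.9 in WT, 26.2, 26.6 and 33.2 in ILKS343D Tg and 25.8, 18.9 and 15.1 in ILKR211A Tg hearts. Rps4l fits the symbol rule, but RefSeq marks it as a transcribed pseudogene, and it was left out after its values had been seen. It read 219 to 311 in WT, 277, 144 and 215 in ILKS343D Tg and 273, 441 and 396 in ILKR211A Tg hearts, with log2 differences of 0.51 for ILKR211A Tg against WT (0.11 to 0.92, limma adjusted p = 0.520) and 0.83 between the lines (0.36 to 1.29, limma adjusted p = 0.257).

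Genes that work with the ribosomal proteins were likewise not called by limma in any comparison. Of 15 tested elongation factors and other genes with TOP transcripts, 2 passed unadjusted in ILKR211A Tg against WT, both higher (13.3%, against 7.51% of all probe sets in both directions and 3.51% higher). Eef1a1, which brings aminoacyl-tRNA to the ribosome, read 7277, 7437 and 6821 in ILKR211A Tg and 6687, 6519 and 6213 in ILKS343D Tg hearts, with WT at 6161 to 6775, a difference from WT of 0.16 (0.05 to 0.27, limma adjusted p = 0.407). Eef2, which moves the ribosome along the message, read 6321, 6653 and 6252 against 5538, 5588 and 5566, with WT at 5214 to 6190, and differed from WT by 0.15 (0.03 to 0.27, limma adjusted p = 0.560). For both elongation factors all 3 ILKR211A Tg hearts lay above every other heart, and they were the 2 of the 15 genes whose groups did not overlap, where 4.07% of all probe sets did not. Npm1, a nucleolar chaperone of assembly, was higher in ILKS343D Tg than WT by 0.15 (limma adjusted p = 0.995).

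Of 38 tested ribosome assembly genes 1 passed unadjusted in ILKR211A Tg against WT and 2 in ILKS343D Tg against WT (2.63% and 5.26%, against 7.51% and 3.98% of all probe sets), with medians of -0.066 and -0.054. Of 19 tested genes of RNA polymerase I and its factors, which make the ribosomal RNA, 3 and 2 passed unadjusted, all lower (15.8% and 10.5%, against 4.00% and 1.86% of all probe sets in that direction), with medians of -0.049 and -0.039. Between the WT sets, which share a genotype, 2 of the 19 also passed, both lower in the first set (10.5%). Of all 22519 probe sets, 1016 passed in that direction and 7.99% in both. Polr1a, the large subunit of the polymerase, differed from WT by -0.22 in both lines (limma adjusted p = 0.639 and 0.995). Of 16 tested regulators of growth and of TOP transcripts, mTOR, Larp1 and the 4E-BPs among them, 0 passed unadjusted against WT in either line, and 1 (Eif4ebp2) did between the lines (8.45% of all probe sets), at 0.23 (limma adjusted p = 0.566). The 4 other tested subunit genes outside the symbol rule (Fau, Rpl7l1, Rpl22l1 and Rps3a1) had 0 of 4 unadjusted in all genotype comparisons.

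Markers of the cell types in the heart were also not called. The 12 cardiomyocyte markers had median differences from WT of 0.0035 in ILKR211A Tg and -0.094 in ILKS343D Tg hearts, with 11 of 12 below 0 in the latter. The 9 cardiac fibroblast markers had medians of 0.097 and 0.16, all 9 above 0 in both lines, and also all 9 higher in the first WT set than in the second (median 0.21). Their summed signal was 11014 to 14031 in WT, 13646 to 14251 in ILKS343D Tg and 12212 to 14328 in ILKR211A Tg hearts. The 9 tested macrophage markers had medians of -0.017 and 0.15. The medians of the 8 endothelial markers were 0.063 and -0.022, and those of the 6 tested smooth muscle and pericyte markers 0.18 and 0.051. Lymphocyte, erythroid, adipocyte and skeletal muscle lists had 2 of 10, 3 of 9, 1 of 6 and 2 of 9 genes tested, with summed signals in WT of 196 to 310, 557 to 971, 65.6 to 139 and 9553 to 13792, the last including Acta1 and Ckm, which the heart also uses. The part of cell composition in the members' differences was not tested.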

How the data were processed

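RNA of 12 hearts was hybridised to Affymetrix arrays, and the authors deposited signal intensities computed with MAS5. The 2% trimmed mean is 150.0 on every array. Neither its version nor the scaling target was stated in the paper or labels. Array controls (64) were removed, and signals were taken to log2 with nothing added. Tests covered the brighter part of the 45037 probe sets, the 22519 whose log2 signal averaged 5.44 or more over the arrays (the median, 43.5 in signal). The 3 genotypes were fitted over all 12 arrays with limma 3.58.1 in R 4.3.3 (lmFit, eBayes with trend), two-sided, and p-values were adjusted by Benjamini-Hochberg over all tested probe sets, with calls at under 0.05. The WT sets were compared in a fit with 4 groups. Within a range of heart numbers, hearts of equal number correlated at 0.12 to 0.18 in their deviations from the group means for ILKR211A Tg with the second WT set and at 0.071 to 0.21 for ILKS343D Tg with the first, against -0.16 to 0.0016 for unequal numbers and -0.20 to -0.0081 for equal numbers across the ranges. Deviations sum to 0 within each group, so values above 0 for equal numbers bring lower ones for unequal numbers. The contrast between equal and unequal numbers is thus no separate support for pairs. From the equal-number values alone, numbers were taken to pair ILKR211A Tg with the second set (all 3 above 0.1). An added fit took all 6 such pairs as blocks, with the unnumbered ILKS343D Tg heart taken as number 1. The code was tested on simulated data. Members, gene lists and the rule for named genes were chosen with earlier results of these data known. Named were the 5 highest and 5 lowest members of each genotype comparison, paralogs, stalk proteins, Rpsa, Rps6, members below the filter, genes whose probe sets differ most and the brightest and dimmest 3. By the platform annotation 34945 probe sets carry 1 gene name, 932 carry more and 9160 carry none. The number of arrays limits the precision. The labels call the hearts biological replicates. Alternatives were scaling, filter, offset, probe set choice, control set, blocks, weights and leaving out each heart.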

Additional observations from a re-analysis of the deposited data

Results flagged for a closer look

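In 28 sets of 6 WT signals, 1 for each named gene, the gap of the highest or lowest heart to the next was compared with Dixon's 95% critical value, which chance passes in about 1 of 20 sets. It was passed by 4 genes. Rpl35 had its highest signal, 3359, in replicate 1 of the first set, with the next at 2974. Rps10 had its highest, 8231, in replicate 2 of the second set, with the next at 6918. Rps25 had its highest, 141, in replicate 2 of the first set, with the next at 113. Rps27 had its lowest, 83.8, in replicate 1 of the first set, with the next at 118. The heart that stands apart for Rpl35 and Rps27 is the one labelled male.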

How the results depend on the processing

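The count of called members was 0 under all alternatives that could be run, 31 for each line against WT, 29 between the lines and 27 between the WT sets, which include an adjusted p under 0.1. With the bare replicate number as a block (replicate block), which is balanced over the groups and so cannot move the differences, the medians were 0.019, -0.019 and 0.041. With a replicate block within each range of heart numbers they were 0.027, -0.027 and 0.053, the last taken through the WT sets. That block changed no call of a member. Leaving out single hearts moved the median log2 difference between -0.016 and 0.053 for ILKR211A Tg against WT, between -0.053 and 0.0045 for ILKS343D Tg against WT, between -0.013 and 0.079 between the lines and between -0.010 and 0.076 between the WT sets, so no median kept its sign throughout. Quantile normalization also turned 2 of them, to 0.021 for ILKS343D Tg against WT and to -0.025 between the lines. Of 2041 values of single named genes under alternatives 2025 kept their sign or moved by less than limma's moderated SD within groups. The other 16 changed sign by more than that, 11 of them through another choice of probe set, with 0 new calls. With 3 hearts in a line, 95% intervals reached a median of 0.14 on the log2 scale to either side for a member against WT and 0.16 between the lines, so for a typical member smaller differences could not be told from 0 even before adjustment.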
